A study of Homo sapiens with 12 samples.

Results

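The 6 metallothionein genes MT2A, MT1X, MT1E, MT1F, MT1M and MT1G were followed in single-cell RNA sequencing of 3 lines of head and neck squamous cell carcinoma. They were chosen by name from the 33514 gene symbols of the count matrices, by a rule that uses none of their values, though with earlier results of these data known, and all 6 were present. SCC1, SCC6 and SCC25 are established lines derived from human squamous tumours, and each had been grown in medium with fetal bovine serum. Cells of each line received 100 nM cetuximab, which binds and blocks the receptor EGFR, every day for 5 days. Control cells received phosphate-buffered saline (PBS) over the same time and are called untreated. Each of the 6 groups had 2 replicates, which gave 12 samples of pooled cultured cells with 3′ tags counted as unique molecular identifiers (UMIs). Whether the replicates were separate cultures is not clear from the labels, so the p-values measure only the spread between these libraries, which may be technical.

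Metallothioneins are small cysteine-rich proteins that bind zinc and copper and also take up toxic metals such as cadmium. Their genes are switched on by metals through the transcription factor MTF1, which recognises short DNA motifs called metal response elements, and they also respond to glucocorticoids and oxidative stress. MT2A is the main isoform in many human epithelial cells, whereas the MT1 genes are a set of closely related copies. The 6 genes lie in 1 cluster on chromosome 16 (GRCh38.p14 in the RefSeq gene table, the build that the submitters' processing notes name as GRCh38). It runs over 75.6 kb, from MT2A (chr16:56608584-56609497) past MT1E, MT1M, MT1F and MT1G to MT1X (chr16:56682470-56684196). Because the copies are so alike, and how shared reads were counted is not given in the sources used here, the split of UMIs among the MT1 genes is uncertain.

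Promoters of the most abundant member and of the most abundant MT1 gene that the reference table holds are shown for their matches to the metal response element. RefSeq sequence (GRCh38.p14) was held for 2 of the 6 members, MT2A and MT1X, and not for MT1E, MT1F, MT1G and MT1M. Capitals mark every match, on either strand, to the 7-letter core of the element, TGCACNC or TGCGCNC, within the 250 bases before the annotated start.
MT2A, chr16:56608334-56608583, plus strand: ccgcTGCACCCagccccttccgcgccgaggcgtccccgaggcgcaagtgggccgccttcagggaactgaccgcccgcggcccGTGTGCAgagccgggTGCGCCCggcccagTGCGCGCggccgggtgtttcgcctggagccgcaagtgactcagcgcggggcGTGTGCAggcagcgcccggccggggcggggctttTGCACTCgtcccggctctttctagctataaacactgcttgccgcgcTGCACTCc
MT1X, chr16:56682220-56682469, plus strand: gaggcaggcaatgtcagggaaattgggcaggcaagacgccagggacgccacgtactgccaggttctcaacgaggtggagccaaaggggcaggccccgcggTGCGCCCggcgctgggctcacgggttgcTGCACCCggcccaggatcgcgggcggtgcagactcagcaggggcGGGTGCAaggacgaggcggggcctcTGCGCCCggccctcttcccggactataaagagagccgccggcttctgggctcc
The MT2A window held 7 matches and the MT1X window 4. Of all 35116 promoters in the table, 24.8% held at least 1 match, 0.370% at least 4 and 0.0313% at least 7. The window of MT1H, a family gene outside the 6 with only 56 UMIs in all 12 samples, held 8 matches. A match is a description of the letters and not a measured binding site.

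The libraries held 57057402 to 112170073 UMIs from 961 to 2854 cells, and 23914 cells were used in all. Median UMIs per cell ran from 24078.5 to 54864, and replicates of 1 group shared 3 to 10 cell barcodes. Of 10 squamous epithelial markers, all stood at 1 CPM (UMIs of a gene per 1000000 of the sample, scaled by the TMM factors of edgeR unless called plain) or more in every SCC1 and SCC25 sample and 9 in every SCC6 sample. The exception was the basal keratin KRT14, joined on plain CPM by KRT5 at 0.967 in SCC6 PBS replicate 1. Both were very low throughout SCC6, with 0.967 to 4.57 plain CPM for KRT5 and 0.379 to 2.58 for KRT14. In SCC1 and SCC25 libraries they had 370 to 2093 and 1322 to 4289 plain CPM. Of 12 markers of other cell types, 9 to 10 were below 1 CPM in every sample of a line, and their summed level was 5.29 to 30.7 CPM in SCC1 and SCC6 and 175 to 238 CPM in SCC25, where CD68 alone had 119 to 205 CPM. PTPRC, CD3E, ALB and HBB, which squamous cells should lack, reached at most 0.183% of a sample's cells at 15000 UMIs per cell. That highest share belonged to HBB, which had UMIs in SCC25 libraries only. These genes serve as the background for shares of positive cells.

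Together the 6 genes made up 0.162% to 0.548% of all UMIs of a sample. MT2A gave most of them, from 65.4% of the family's UMIs in SCC1 cetuximab replicate 2 to 92.1% in SCC6 PBS replicate 2, and ranked 59 among all genes by mean plain CPM. MT1X gave 5.23% to 19.5% and MT1E up to 23.5%, while MT1F never exceeded 1.66%, MT1M 0.635% and MT1G 0.0998%. These are shares of counted transcript ends and need no correction for transcript length.

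In untreated SCC1 MT2A stood at 2924 and 2105 CPM in replicates 1 and 2, in untreated SCC6 at 3565 and 4007, and in untreated SCC25 at 2618 and 1460. Group means were 2515 ± 579 (SD, n = 2), 3786 ± 313 and 2039 ± 819 CPM. SCC6 was highest and did not overlap with the other lines, while SCC1 and SCC25 overlapped. None of the 3 differences between untreated lines passed edgeR's quasi-likelihood test at a false discovery rate (FDR) of 0.05. The largest was SCC25 against SCC6, at log2 -0.89 ± 0.54 (SE, FDR 0.219). With the replicate number as a block the same difference was -1.02 ± 0.39 and passed (FDR 0.0467), in a fit that called 54.4% of all genes. That fit called 53.8% of genes between SCC6 and SCC1 and 54.7% between SCC25 and SCC1.

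**Figure D1:**
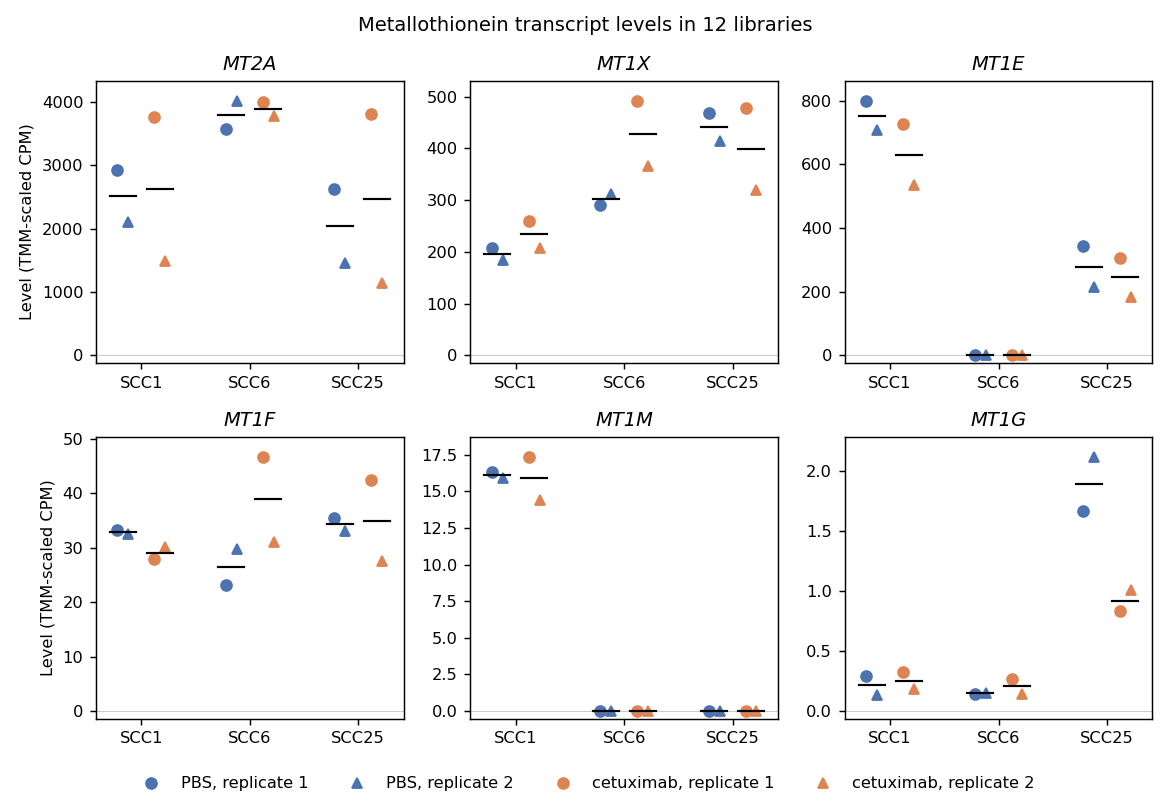
TMM-scaled CPM (linear axes) of the 6 metallothionein genes in each of the 12 libraries, by line, with PBS in blue and cetuximab in orange, circles for replicate 1, triangles for replicate 2 and black lines for the mean of 2. MT2A leads in every line, MT1E is near 0 in SCC6, MT1M is measurable in SCC1 and MT1G stands highest in SCC25.

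The lines differed sharply in which MT1 genes they used. MT1E, the second most abundant member in SCC1, stood at 797 and 708 CPM in untreated SCC1 and at 344 and 214 CPM in untreated SCC25. In untreated SCC6 it had 4 and 8 UMIs in whole libraries of 100360353 and 102796996. The level in SCC25 was lower than in SCC1 by edgeR's test (log2 -1.43 ± 0.33, FDR 0.00626), with no overlap between the groups. Its share of all UMIs of the untreated group, without TMM scaling, was 13666 times that of SCC6 in SCC1 (95% counting interval 7823 to 26449). In SCC25 it was 4349 times that of SCC6 (2489 to 8417), and both differences passed edgeR's test. Over all 4 SCC6 libraries 21 MT1E UMIs were counted, in 21 different cells of 9724 and never more than 1 in a cell.

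MT1M was measurable in SCC1 and had at most 1 UMI in each of the other lines. It had 16.3 and 15.9 CPM in untreated SCC1, no UMI in any of the 4 SCC6 libraries, and 1 UMI in the 4 SCC25 libraries together. With 0 of 9724 SCC6 cells positive, a share of up to 0.0309% of cells with an MT1M UMI is allowed by counting error, which does not limit the share of cells that express the gene below detection. By share of all UMIs, untreated SCC1 was at least 1177-fold higher than untreated SCC6, taking a floor of 3 UMIs over the group. It was 3358-fold higher than untreated SCC25 with its single UMI (95% counting interval 602 to 132674). Both differences passed edgeR's test.

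MT1X was lowest in SCC1 and highest in SCC25. It stood at 208 and 185 CPM in untreated SCC1, 291 and 312 in untreated SCC6, and 467 and 414 in untreated SCC25, and no pair of lines overlapped. SCC25 exceeded SCC1 by log2 1.17 ± 0.24 (FDR 0.00349). SCC6 exceeded SCC1 by 0.62 ± 0.24, which missed the threshold (FDR 0.0611) but passed with the replicate block (0.63 ± 0.17, FDR 0.00985). For SCC25 against SCC6 the difference was 0.55 ± 0.24 (FDR 0.0919), and 0.53 ± 0.17 with the block (FDR 0.0217). Plain CPM narrowed the difference of MT1X between SCC6 and SCC1 to 0.28 ± 0.26 (FDR 0.406), so that its size depends on the scaling.

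MT1F was low in all lines. Its untreated levels were 33.3 and 32.5 CPM for SCC1, 23.1 and 29.7 for SCC6 and 35.5 and 33.1 for SCC25. SCC6 lay below the other lines without overlap, but no difference between lines passed edgeR's test (FDR 0.280 to 0.876). MT1G had the fewest UMIs of the 6 over all samples together, although MT1M had fewer in SCC6 and SCC25 and MT1E fewer in SCC6. In untreated SCC25 it had 134 and 218 UMIs (1.67 and 2.12 CPM), against 21 and 13 UMIs in SCC1 and 12 and 14 in SCC6, with no overlap between SCC25 and the others. SCC25 was higher by log2 3.16 ± 0.48 than SCC1 (FDR 0.000571) and by 3.67 ± 0.49 than SCC6 (FDR 0.000276).

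In these comparisons of untreated lines 2 of the 6 members were called between SCC6 and SCC1, 4 between SCC25 and SCC1 and 2 between SCC25 and SCC6. Of the 17897 genes tested, 40.2%, 40.8% and 40.9% were called in the same comparisons, so that calls were common among genes at large and nothing is read from the members' counts. The 3 comparisons share their untreated samples. Median differences of the members with counts were log2 -0.41, -0.12 and 0.55, beside 0.003, 0.04 and 0.005 over all genes tested. Other family symbols in the matrices were close to silent. MT1A, MT1B, MT1H, MT1HL1 and MT3 had 3 to 56 UMIs each over all 12 samples and MT4 none. MT1H had 53 of its 56 UMIs in SCC25, the line with most MT1G, and was higher in untreated SCC25 than in SCC1 (FDR 0.00828) and SCC6 (FDR 0.00279) by edgeR.

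Whether cetuximab changed metallothionein levels was asked within each line. MT2A did not change in a common direction. The PBS values given above stood beside cetuximab values of 3759 and 1486 CPM for SCC1, 3990 and 3774 for SCC6 and 3806 and 1139 for SCC25, and the treatments overlapped in every line. The same-numbered pairs moved apart in all 3 lines, by log2 0.36, 0.16 and 0.54 in the replicate 1 pairs and by -0.50, -0.09 and -0.36 in the replicate 2 pairs of SCC1, SCC6 and SCC25. In SCC1 and SCC25 the difference between replicates was larger than that between treatments. Replicate 1 exceeded replicate 2 there 1.39-fold and 1.79-fold with PBS and 2.53-fold and 3.34-fold with cetuximab, against 0.890-fold and 1.06-fold in SCC6. Cells of replicate 2 had the higher median mitochondrial share in all 6 groups (2.49% to 4.98% in replicate 1, 3.01% to 5.67% in replicate 2), and the part of this in the result was not tested.

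By edgeR's test the MT2A change was log2 0.06 ± 0.54 for SCC1, 0.04 ± 0.54 for SCC6, 0.28 ± 0.54 for SCC25 and 0.12 ± 0.29 across the lines, with FDR values of 0.856 to 1.00. These errors leave room for changes of either sign. The scaling matters in SCC6, where the TMM factors were higher with cetuximab by log2 0.29 and 0.17 in the pairs. On plain CPM the MT2A change in SCC6 was therefore 0.45 and 0.08, positive in both pairs, and the plain-CPM fit gave 0.26 ± 0.56 (FDR 0.843).

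**Figure D2:**
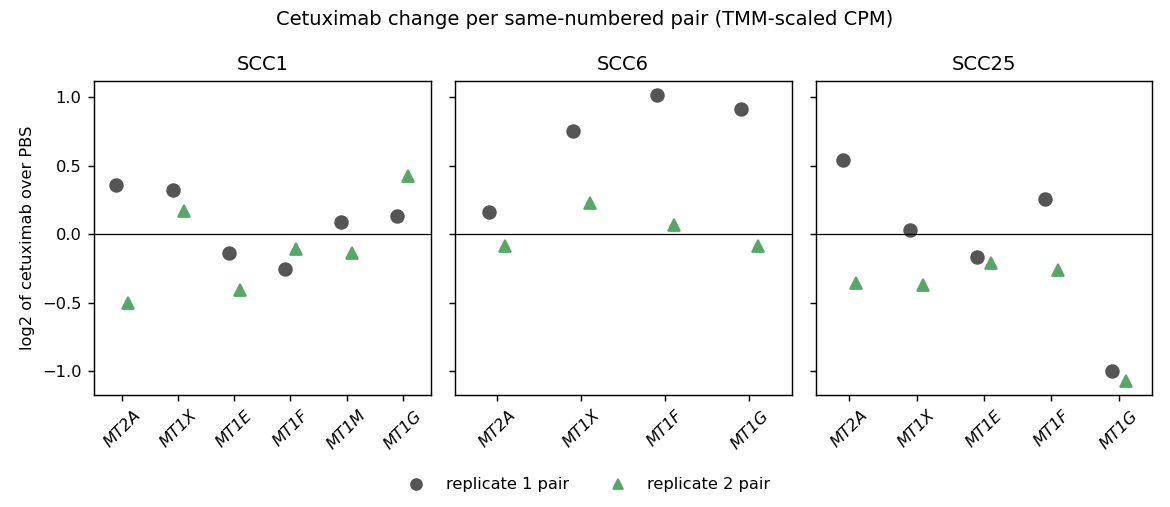
Log2 ratio of cetuximab over PBS in TMM-scaled CPM for each same-numbered pair (grey circles replicate 1, green triangles replicate 2), by line and gene, leaving out MT1E in SCC6 and MT1M in SCC6 and SCC25, which had too few UMIs. MT2A lies above 0 in replicate 1 and below 0 in replicate 2 of every line, whereas MT1G in SCC25 lies near -1 in both pairs.

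MT1X had higher values with cetuximab in both SCC6 pairs, from 291 to 491 CPM and from 312 to 366 CPM, with no overlap between PBS and cetuximab. The fitted change was log2 0.51 ± 0.24 and did not pass (FDR 0.272), nor with the replicate block (0.49 ± 0.16, FDR 0.0616). It was 0.28 without cetuximab replicate 1 and 0.69 without cetuximab replicate 2. On plain CPM it was 0.73 ± 0.26 (FDR 0.131). In SCC1 MT1X went from 208 to 260 and from 185 to 207 CPM (log2 0.25 ± 0.24, FDR 0.898). In SCC25 it went from 467 to 478 and from 414 to 319 CPM, so that the pairs had opposite signs (log2 -0.14 ± 0.24, FDR 1.00).

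MT1F in SCC6 had 23.1 and 29.7 CPM with PBS and 46.7 and 31.1 with cetuximab. The groups did not overlap, but the mean difference came mostly from the replicate 1 pair, and the change of log2 0.56 ± 0.26 did not pass (FDR 0.269). It was 0.24 without cetuximab replicate 1. In SCC1 the MT1F values were 33.3 and 32.5 CPM with PBS and 27.9 and 30.1 with cetuximab, and in SCC25 35.5 and 33.1 with PBS and 42.4 and 27.7 with cetuximab (FDR 0.969 and 1.00).

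MT1E was lower with cetuximab in each of the 4 pairs of SCC1 and SCC25. In SCC6 MT1E went from 4 to 6 UMIs in replicate 1 and from 8 to 3 in replicate 2, too few to compare. It went from 797 to 725 and from 708 to 534 CPM in SCC1, and from 344 to 306 and from 214 to 185 CPM in SCC25. The changes were small against the replicate error, at log2 -0.26 ± 0.32 (FDR 0.948) for SCC1 and -0.18 ± 0.32 (FDR 1.00) for SCC25. Leaving out single libraries moved the MT1E change in SCC1 from -0.50 (without cetuximab replicate 1) to -0.054 (without cetuximab replicate 2), and that in SCC25 changed sign, to 0.20 without PBS replicate 1 and 0.13 without cetuximab replicate 2. MT1M, measurable in SCC1, had 16.3 and 15.9 CPM with PBS and 17.4 and 14.4 with cetuximab (log2 -0.02 ± 0.28, FDR 1.00).

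In SCC25 MT1G was lower with cetuximab. Its 1.67 and 2.12 CPM with PBS stood against 0.834 and 1.01 CPM with cetuximab and the groups did not overlap. The change was log2 -1.04 ± 0.42 and did not pass over all genes (FDR 0.797), nor with the replicate block (-1.04 ± 0.28, FDR 0.147). In SCC1 and SCC6, with 12 to 21 UMIs per library, the MT1G differences were log2 0.24 ± 0.49 (FDR 1.00) and 0.47 ± 0.51 (FDR 0.665).

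No member was called by edgeR in any of the 3 lines, across the lines or in the interaction of line and treatment. The share of all genes called was 0.0168% in SCC1, 3.81% in SCC6, 0% in SCC25, 3.67% across the lines and 0% for the interaction. In the edgeR fit without the replicate block MT1G in SCC25 was the single member with an unadjusted p under 0.05, and DESeq2 called no member. Median changes of the members with counts were log2 0.02 in SCC1, 0.47 in SCC6 and -0.14 in SCC25, beside 0.001, 0 and -0.007 over all genes tested. The smallest interaction FDR among the members was 0.739, for MT1G.

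Cell-to-cell variation was measured after each cell had been thinned at random to 15000 UMIs, which left 23063 cells. MT2A was found in 99.6% to 100% of the cells of every sample, and its variation was in amount. In untreated SCC1 replicate 1 the median cell had 35 MT2A UMIs, the 10th percentile 11.4 and the 90th 95. In untreated SCC25 replicate 2 these were 15, 5 and 36, and in untreated SCC6 replicate 2 they were 45, 17 and 95. The ratio of the 90th to the 10th percentile was 4.81 to 9.23 over the 12 samples. The difference between replicates ran through the whole distribution. In SCC25 cetuximab replicate 1 the 10th percentile was 21 and the 90th 101, against 4 and 31 in replicate 2.

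**Figure D3:**
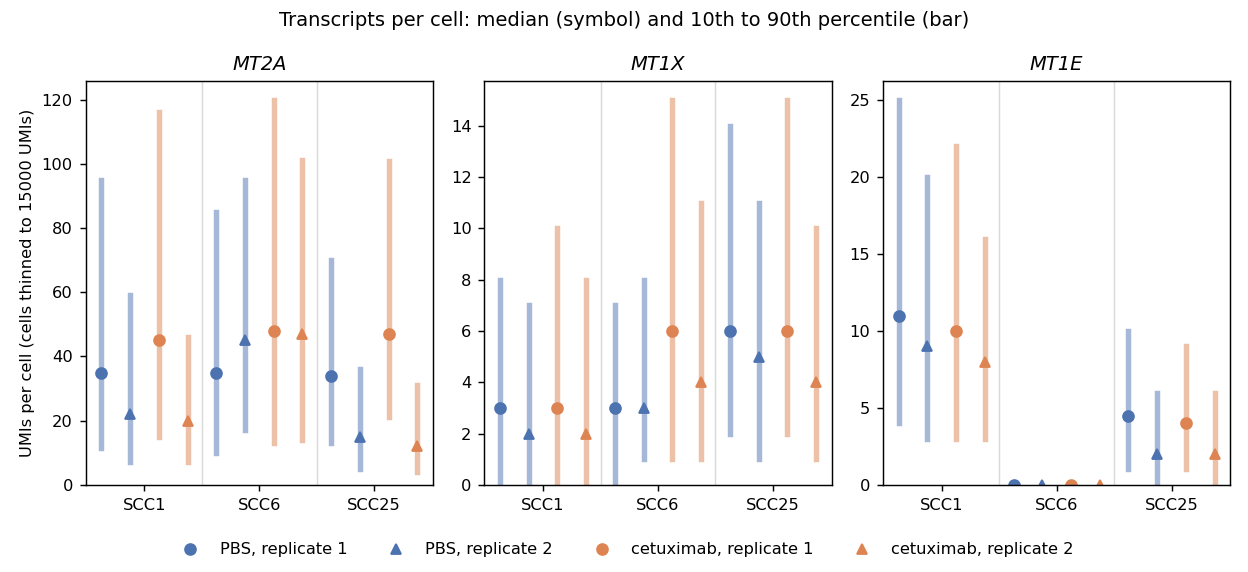
UMIs per cell of MT2A, MT1X and MT1E after thinning to 15000 UMIs (linear axes), for the 4 samples of each line in the order PBS replicates 1 and 2, then cetuximab replicates 1 and 2, with symbols at the median and bars from the 10th to the 90th percentile. In SCC25 with cetuximab the MT2A median is 47 in replicate 1 and 12 in replicate 2, while in SCC6 the 4 medians lie between 35 and 48.

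MT1X was found in 84.0% to 98.3% of thinned cells, with medians of 2 to 6 UMIs. MT1E was positive in 98.7% to 99.2% of SCC1 cells and in 81.4% to 93.3% of SCC25 cells. In SCC6 cells it was positive in at most 0.246% (95% exact interval 0.0904 to 0.535), in PBS replicate 2. PTPRC, CD3E, ALB and HBB had no UMI in that library, and the background of 0.183% came from HBB in SCC25. MT1F was found in 23.6% to 47.6% of cells, and MT1M in 19.0% to 23.9% of SCC1 cells. Before thinning, at median depths of 24078.5 to 54864 UMIs, the corresponding shares were 96.7% to 99.01% for MT1X, 99.5% to 99.7% and 92.4% to 96.4% for MT1E, 44.1% to 76.6% for MT1F and 44.6% to 47.5% for MT1M. Thinned MT1G shares were 0.602% to 2.42% in SCC25, 0.183% to 0.746% in SCC1 and 0.151% to 0.309% in SCC6. Unthinned, the MT1G shares were 2.17% to 4.57%, 0.600% to 1.98% and 0.439% to 0.786% in the same order of lines. In the SCC6 libraries ALB and HBB had no UMI, and PTPRC and CD3E had at most 0.0222 plain CPM.

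Spread was expressed as the squared coefficient of variation over cells beyond Poisson counting noise, where 0 means counting noise alone. For MT2A it was 0.901 and 1.195 in untreated SCC1, 0.602 and 0.411 in untreated SCC6 and 0.470 and 0.669 in untreated SCC25. With cetuximab it was 0.766 and 0.522, 0.584 and 0.480, and 0.441 and 0.819. Both cetuximab values lay below both PBS values in SCC1, while the groups overlapped in SCC25. Among the 187 to 234 genes with a mean of at least 10 UMIs per thinned cell, MT2A ranked from 2 to 28 by spread, and the median of these genes was 0.0592 to 0.205. The 10% of cells richest in MT2A held 23.9% to 33.9% of its UMIs. Before thinning, the richest single cells held 5266 MT2A UMIs in SCC1, 2147 in SCC6 and 1671 in SCC25.

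Values of MT1X spread were 0.449 to 1.38, highest in SCC1 with cetuximab (1.38 and 1.07), and MT1X ranked from 83 to 227 among 1810 to 2388 genes with a mean of at least 1 UMI. MT1E had 0.294 to 0.438 in SCC1 and 0.346 to 0.925 in SCC25. MT1F lay between 0.282 and 0.752 in 11 samples and at 2.37 in SCC6 PBS replicate 1, where 1 thinned cell had 20 MT1F UMIs against at most 15 in any other sample. MT1M had 1.03 to 1.66 in SCC1.

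**Figure D4:**
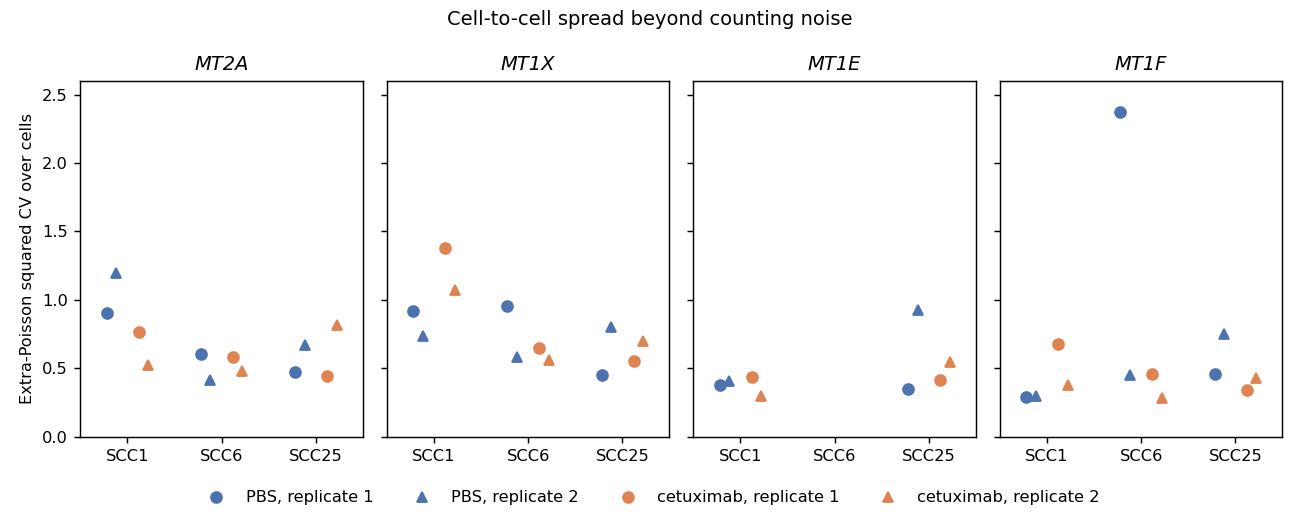
Squared coefficient of variation over cells beyond Poisson noise (no unit, linear axis from 0) for MT2A, MT1X, MT1E and MT1F in each library, with PBS in blue, cetuximab in orange, circles for replicate 1 and triangles for replicate 2; MT1E in SCC6 is left out for lack of UMIs. MT2A has 0.901 and 1.195 with PBS and 0.766 and 0.522 with cetuximab in SCC1, which did not pass the test, and MT1F in SCC6 PBS replicate 1 stands apart at 2.37.

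Spread of MT2A, MT1X and MT1F was tested with limma on the log2 scale among 5990 genes. No change with cetuximab passed, against 0.184% of genes called in SCC1, 0.0835% in SCC6, 0.0501% in SCC25 and 0% across the lines. Over all genes tested the median change in spread was itself above 0, at log2 0.36, 0.13, 0.09 and 0.18 in the same order. For MT2A the change was log2 -0.71 ± 0.43 for SCC1, 0.09 ± 0.43 for SCC6 and 0.10 ± 0.43 for SCC25, with FDR values of 0.643, 0.995 and 1.00. No member had an unadjusted p under 0.05. The largest difference was that of MT1F in SCC6, at log2 -1.52 ± 0.72 (FDR 0.819). It was -0.32 without PBS replicate 1 and -1.09 without the single richest cell of each sample. MT1E and MT1M entered in fits of the 4 samples of a line alone, where the MT1E difference was -0.11 ± 0.37 for SCC1 (FDR 0.941) and -0.25 ± 0.56 for SCC25 (FDR 1.00), and that of MT1M 0.22 ± 0.36 for SCC1 (FDR 0.872).

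MT2A varied with MT1E and MT1X from cell to cell within a library, and the strength of the tie differed by pair and line. Pearson correlations of log2(thinned UMIs + 1) are given as a description over the cells of a sample, which share their library. MT2A and MT1E correlated at r = 0.541 to 0.673 over the 4 SCC1 samples and at 0.329 to 0.444 over those of SCC25. For MT2A and MT1X the range was 0.185 to 0.243 in SCC1, 0.363 to 0.572 in SCC6 and 0.302 to 0.405 in SCC25. MT2A and MT1X were thus most closely tied in SCC6, where MT1E had 21 UMIs in all, though the ranges of SCC6 and SCC25 overlap. Some pairs with the sparser MT1F or MT1M were weaker, at 0.0556 to 0.201 for MT2A with MT1F, 0.0634 to 0.244 for MT1E with MT1F, 0.0558 to 0.154 for MT1X with MT1M and 0.0563 to 0.106 for MT1F with MT1M. No correlation was computed for MT1G, the member with fewest UMIs. MT2A also rose weakly with the total UMIs of a cell (r = 0.0371 to 0.319) although all cells had been thinned to the same number.

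The genes that accompanied MT2A most closely over cells were ranked next. By median r over the 12 samples, among 6728 genes with a mean of at least 0.2 UMI per thinned cell, the genes most like MT2A outside the 6 members were TMSB10 (0.337), HMGA1 (0.312), PTTG1 (0.310), PFN1 (0.301), TUBA1B (0.280), H2AFZ (0.273), UBE2S (0.268), H2AFV (0.263), HMGN2 (0.259) and HMGB1 (0.256). PTTG1 (securin) and UBE2S, a ubiquitin-conjugating enzyme of the anaphase-promoting complex, act in mitosis. HMGA1, HMGN2, HMGB1 and the histone variants H2AFZ and H2AFV are chromatin proteins, while TMSB10, PFN1 and TUBA1B belong to the cytoskeleton. All 10 had r above 0 in 12 of 12 samples, with 0.199 to 0.404 for PTTG1 and 0.00498 to 0.563 for TMSB10. These correlations are weak, and the 10 genes are among the well expressed ones, with mean levels of 225 to 4819 plain CPM.

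Over the 12 samples, which share lines and replicate numbers, the genes most like MT2A by Pearson r of log2 CPM among 7579 genes were ELK3 (0.915), NUP153 (0.890), ABCF1 (0.875), COPS9 (0.843) and SLC35E1 (0.841). ELK3 is a transcription factor of the ETS family and NUP153 a nuclear pore protein. ELK3, NUP153, ABCF1 and SLC35E1 were higher in replicate 1 than in replicate 2 in all 6 groups, and COPS9 in 5.

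In the replicate 2 libraries of SCC25 much of MT1G was concentrated in single cells. In SCC25, 304 of 8920 cells (3.41%) had an MT1G UMI, and 257 of these had just 1. At the other end, 4 cells with 10 or more held 147 of the 526 MT1G UMIs of the line (27.9%), and all 4 were in replicate 2. In replicate 1 the richest cell had 6 MT1G UMIs with PBS and 2 with cetuximab, or 4.48% and 2.78% of those of its library. The 4 cells were picked out after their values had been seen. The richest, in PBS replicate 2, held 82 of the 218 MT1G UMIs of its library, together with 1012 MT2A, 564 MT1X, 256 MT1E, 43 MT1F and 9 MT1H UMIs, and no other cell of that library had more of MT2A, MT1X, MT1E or MT1F per UMI. It had 49498 UMIs in all and 3.14% from mitochondrial genes, beside library medians of 40883.5 UMIs and 4.37%.

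The next, in cetuximab replicate 2, held 43 of its library's 102 MT1G UMIs with 403 MT2A and 67 MT1X UMIs in a cell of 20298 UMIs, and no cell of that library exceeded it in MT2A or MT1X per UMI. The remaining cells were not as extreme in the other members. The cell with 12 MT1G UMIs lay above 87.3% of the cells of its library in MT2A, 83.5% in MT1X, 68.7% in MT1E and 83.8% in MT1F. The cell with 10 lay above 91.1% in MT2A and 21.0% in MT1X, and had no MT1F UMI. Without the single richest cell of each sample the higher MT1G level of untreated SCC25 remained past the threshold, at log2 2.91 ± 0.51 over SCC1 (FDR 0.00132) and 3.40 ± 0.52 over SCC6 (FDR 0.000629), and the change with cetuximab was -1.06 ± 0.45 (FDR 0.823).

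**Figure D5:**
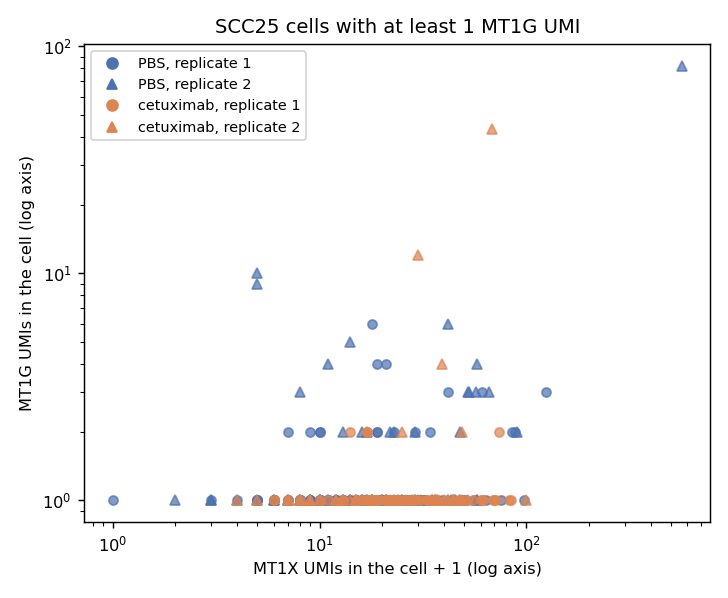
MT1G UMIs against MT1X UMIs + 1 (log axes) in the 304 SCC25 cells with at least 1 MT1G UMI, with PBS in blue, cetuximab in orange, circles for replicate 1 and triangles for replicate 2. Most cells have 1 MT1G UMI whatever their MT1X count, and 1 PBS cell stands apart with 82 MT1G and 564 MT1X UMIs.

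Of 25 genes of metal sensing and zinc transport, 20 were tested. None passed in SCC1 or SCC25, 1 rose in SCC6 and 2 rose across the lines, where 2.51% and 2.53% of all genes tested were called higher, with median changes of the list of log2 0.06 and 0.18. SLC30A4, a zinc exporter of intracellular vesicles, rose in SCC6 from 1.03 and 1.00 to 4.24 and 3.94 CPM (log2 2.01 ± 0.32, FDR 0.0122), with no overlap. Across the lines SLC30A4 rose by 1.15 ± 0.25 (FDR 0.0315) and SLC39A13, a zinc importer of the ZIP family, by 0.69 ± 0.12 (FDR 0.0150). MTF1 itself, the metal-responsive transcription factor, had mean levels of 7.57 to 13.2 CPM in the 6 groups, and SLC30A1, a zinc exporter of the cell surface and a target of MTF1, 10.0 to 18.8 CPM, and neither passed in any cetuximab comparison. MTF1 and SLC30A1 were named after their values had been seen. Of 15 copper handling genes 14 were tested, and SLC31A2, a copper transporter, rose in SCC6 from 13.2 and 14.4 to 42.6 and 50.2 CPM (log2 1.75 ± 0.20, FDR 0.00532) and across the lines by 1.07 ± 0.18 (FDR 0.0134). No metallothionein passed in the comparisons in which these transporters rose.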

How the data were processed

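Single-cell 3′ libraries (10x Genomics Chromium, v2 chemistry) of 12 samples were analysed. The deposited counts are whole-number UMI counts per gene and cell, 1 matrix per line. Per the labels they were made with Cell Ranger on GRCh38; its version is not given in the sources used here. The study's methods add pre-processing in Monocle. Counts of 24 symbols found on more than 1 row were added. No cell was filtered and no doublet caller run. Groups came from the labels.

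UMIs were summed per sample, and 17897 genes that passed filterByExpr were tested with edgeR 4.0.16 (TMM, quasi-likelihood F-test, 1 mean per group), R 4.3.3, two-sided, with Benjamini-Hochberg adjustment over all genes (FDR under 0.05). All 6 members passed the filter. The across-line effect used line and treatment terms, and the interaction the group means. Spread was tested with limma 3.58.1 in genes with a mean of at least 0.2 UMI per thinned cell. Alternatives included DESeq2 1.42.0. Same-numbered samples deviated together over 7583 genes (r = 0.669 in SCC1, 0.626 in SCC6, 0.721 in SCC25), and so did those of different lines (0.572 to 0.662), so the replicate number was also fitted as a block, within each line for cetuximab and shared by the lines for untreated comparisons. Scripts were tested on simulated data. With counts drawn without a replicate effect and genes changed in SCC6, edgeR called 12 of 100 genes changed 2-fold and 80 of 100 changed 4-fold. With the replicate block it called 4 and 71, so changes of 2-fold were mostly missed. Intervals and limits (95%, or 3 counts at 0) cover counting error only.

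Members and gene lists were chosen with earlier results of these data known. Named were all 6 members, up to 3 passing genes of each list per cetuximab comparison (or the 2 most abundant of a list with none), the 5 genes most like MT2A over samples and the 10 most like it over cells. MT1L, MT1JP, MT1DP, MT1CP and MT1IP were not analysed here.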

Additional observations from a re-analysis of the deposited data

How the results depend on the processing

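No member was called for a cetuximab change, in level or spread, under any alternative run, which were DESeq2, 2 other scalings, no filter on low counts, thinned sums, the replicate block, each line fitted alone, omission of the richest or high-mitochondrial cells and omission of each sample in turn. Leaving out samples gave 0 calls throughout for cetuximab, the interaction and spread, 2 to 3 for untreated SCC6 against SCC1 (3, with MT1X, without either cetuximab replicate of SCC25), 4 for SCC25 against SCC1 and 2 for SCC25 against SCC6. The replicate block raised the last to 4 members (MT2A, MT1E, MT1G and MT1X) and called MT1X in SCC6 against SCC1, as did DESeq2 (FDR 0.0396). It changed no other call. The cause was not tested. The omission of the richest cell of a gene, plain CPM scaling and the fit of spread in 1 line alone were chosen after seeing the data.

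Signs turned for 11 values outside the omission of samples. For the cetuximab change in level these were MT1G in SCC1 without the cells with most UMIs (log2 -0.023), MT2A in SCC1 (-0.070) and MT1F in SCC25 (-0.0020) with the block, and MT1M in SCC1 on plain CPM (0.029), as well as MT1F between untreated SCC25 and SCC1 on plain CPM (-0.13). For spread they were MT1X in SCC6 (0.30) and SCC25 (-0.039) as a variance-to-mean ratio, and without thinning MT2A in SCC25 (-0.055), MT1X in SCC25 (-0.44), and across lines MT1F (0.069) and MT1X (-0.063).

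Another 30 sign changes arose when single samples were left out. The cetuximab change in level then ran from -0.77 to 0.58 for MT2A, -0.17 to 0.11 for MT1M and -0.24 to 0.86 for MT1G in SCC1, from -0.052 to 0.12 for MT2A, -1.01 to 0.17 for MT1E and -0.039 to 0.86 for MT1G in SCC6, and from -0.83 to 0.90 for MT2A, -0.58 to 0.20 for MT1E, -0.30 to 0.30 for MT1F and -0.45 to 0.12 for MT1X in SCC25. Across the lines it ran from -0.15 to 0.27 for MT2A and -0.23 to 0.025 for MT1M. Between untreated lines it ran from -0.98 to 0.11 for MT1G in SCC6 against SCC1 and from -0.78 to 0.055 for MT2A in SCC25 against SCC1. For spread it ran from -0.18 to 0.36 for MT2A and -0.67 to 0.047 for MT1X in SCC6, from -0.35 to 0.55 for MT2A and -0.37 to 0.47 for MT1X in SCC25, and from -0.00073 to 0.24 for MT1X across the lines.

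Over all genes, cetuximab calls for SCC1, SCC6 and SCC25 were 3, 682 and 0 by edgeR, 797, 3589 and 175 with the block and 274, 1671 and 101 by DESeq2. Those across the lines were 656, 2073 and 1771, and those of the interaction 0, 230 and 276. At an unadjusted p under 0.05 edgeR had 1041 genes for SCC25 and 1318 for the interaction. The spread between 2 libraries per group limited MT2A and MT1X, which had many UMIs, whereas MT1G outside SCC25 rested on 12 to 21 UMIs per library.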

Other observations

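Genes of other pathways known to touch metallothioneins were described from gene lists. In the glucocorticoid response, 11 of 12 genes were tested, and 1 fell in SCC6 and 1 across the lines, where 1.30% and 1.13% of all genes tested were called lower. CEBPD, a transcription factor gene that glucocorticoids induce, stood at 253 and 106 CPM in replicates 1 and 2 with PBS and at 63.8 and 54.7 with cetuximab in SCC6 (log2 -1.60 ± 0.35, FDR 0.0365, edgeR). Not all genes of the list fell there. SGK1, picked after its values had been seen, had 32.9 and 30.5 plain CPM with PBS in SCC6 and 62.1 and 83.3 with cetuximab. FKBP5, a common marker of glucocorticoid receptor activity, fell across the lines by 0.56 ± 0.14 on the log2 scale (FDR 0.0495), with group means for PBS and cetuximab of 2.92 and 2.21 CPM for SCC1, 4.50 and 2.70 for SCC6 and 3.49 and 2.41 for SCC25. None of 12 heat shock genes, 12 NRF2 targets or 10 genes of iron storage and haem passed in any cetuximab comparison by edgeR. In SCC6 the median change was log2 -0.68 for heat shock genes, with 11 of 12 below 0, and -0.72 for NRF2 targets, with 12 of 12 below 0, beside 0 over all genes tested. The most abundant genes of these lists were the ferritin chains FTH1 and FTL, the chaperones HSPB1 and HSP90AA1, and the redox enzymes NQO1 and TXNRD1. The lowest FDR among these 6 genes was 0.154, for TXNRD1 in SCC6, with 164 and 98.0 CPM in replicates 1 and 2 with PBS and 66.2 and 89.0 with cetuximab (log2 -0.76 ± 0.27), so that most of the difference lay in the replicate 1 pair.

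KRT17, a keratin of activated squamous epithelium, rose in SCC6 (log2 1.64 ± 0.39, FDR 0.0463) and across the lines (1.25 ± 0.22, FDR 0.0149), and KRT6A fell in SCC6 (-2.60 ± 0.27, FDR 0.00373). Of all genes tested, 2.51% were called higher in SCC6 and 2.53% across the lines. Among markers of other cell types CD68 fell in SCC6 (-2.55 ± 0.47, FDR 0.0202) and PDGFRB rose (4.67 ± 0.78, FDR 0.0144). PDGFRB was near the floor in SCC6, at 0.0299 and 0.0584 plain CPM with PBS and 1.34 and 1.37 with cetuximab. At the opposite end from the genes that accompanied MT2A within libraries were KRT19, with a median r of -0.261 over the 12 samples, KRT13 (-0.237), MALAT1 (-0.235), PERP (-0.231) and SLPI (-0.226), a group chosen after its values had been seen. KRT13 and KRT19 are keratins, PERP is a desmosome protein and SLPI a secreted protease inhibitor of squamous epithelia.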
